A study of Mus musculus with 14 samples.

Results

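Dbp, Tef, Hlf and Nfil3 were followed by their gene symbols, and these 4 genes were all found among the 54446 genes of the table, each with 1 set of values and all above the minimum for testing. Dbp, Tef and Hlf encode the PAR bZIP factors, transcription factors with a basic leucine zipper and a domain rich in proline and acidic residues. Nfil3, also called E4bp4, encodes a repressor with a similar zipper. The study sequenced total RNA of livers taken from 5-week-old mice of the C57BL/6 strain. The knockout group was 8 livers of genotype Mettl3 floxed, Alb-Cre, in which the albumin promoter drives Cre recombinase in hepatocytes. The control group was 6 livers of genotype Mettl3 floxed, called wild type in the titles, so the floxed allele was common to both groups, and effects of Alb-Cre itself and of the deletion it makes cannot be told apart. Mettl3 encodes the catalytic subunit of the m6A methyltransferase of mRNA, and the title of the series names circadian rhythm-controlled expression among its subjects. The labels gave neither sex nor the time of day of collection.

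The 3 PAR bZIP factors activate transcription from D-box elements, and NFIL3 occupies the same elements and represses. Dbp is driven through E-boxes by the clock activators CLOCK and BMAL1 (the product of Arntl), while Nfil3 is repressed by the REV-ERB receptors and activated by the ROR receptors, so that in liver of a wild-type mouse the activators and the repressor peak at opposite phases of the day. Their known targets in liver include genes of heme synthesis, drug metabolism and the sensing of fatty acids.

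Dbp lies on chromosome 7 at 45705088 to 45710203 (plus strand, ENSMUSG00000059824), Tef on chromosome 15 at 81802421 to 81826863 (plus strand, ENSMUSG00000022389), Hlf on chromosome 11 at 90336536 to 90390895 (minus strand, ENSMUSG00000003949) and Nfil3 on chromosome 13 at 52967209 to 52981073 (minus strand, ENSMUSG00000056749), all protein-coding in GENCODE M21 on GRCm38. Nfil3 had 1 annotated transcript, against 5 for Dbp, 6 for Hlf and 10 for Tef. Their promoters are shown because clock factors are known to act on promoters through the elements marked in them. Each stretch is RefSeq sequence of GRCm38.p6 from 250 bases before to 50 bases after a start site, 5′ to 3′ on the strand of the gene, and Tef had 2 start sites. Capitals mark a match on either strand to an E-box (CACGTG), a D-box (TTATGTAA or TTACGTAA), a cAMP response element (TGACGTCA) or the core of the ROR and REV-ERB element (AGGTCA).
Dbp, chr7:45704997-45705296, plus strand: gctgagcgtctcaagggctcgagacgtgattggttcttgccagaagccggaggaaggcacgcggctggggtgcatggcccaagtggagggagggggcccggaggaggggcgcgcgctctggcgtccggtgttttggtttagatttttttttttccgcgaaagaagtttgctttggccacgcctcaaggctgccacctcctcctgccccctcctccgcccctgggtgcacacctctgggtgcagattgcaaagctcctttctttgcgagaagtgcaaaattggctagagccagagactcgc
Tef start 1, chr15:81802423-81802722, plus strand: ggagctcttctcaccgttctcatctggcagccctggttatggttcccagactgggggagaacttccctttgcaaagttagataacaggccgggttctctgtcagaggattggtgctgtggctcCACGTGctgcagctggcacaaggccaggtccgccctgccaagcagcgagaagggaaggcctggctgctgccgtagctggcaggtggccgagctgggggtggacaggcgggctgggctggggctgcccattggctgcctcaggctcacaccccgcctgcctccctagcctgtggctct
Tef start 2, chr15:81811164-81811463, plus strand: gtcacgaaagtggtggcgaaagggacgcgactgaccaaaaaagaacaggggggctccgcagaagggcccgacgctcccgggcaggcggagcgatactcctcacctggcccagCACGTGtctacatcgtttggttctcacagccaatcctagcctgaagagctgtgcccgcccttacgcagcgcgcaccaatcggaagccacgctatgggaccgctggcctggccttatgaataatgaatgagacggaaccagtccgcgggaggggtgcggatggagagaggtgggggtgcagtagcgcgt
Hlf, chr11:90390868-90391167, minus strand: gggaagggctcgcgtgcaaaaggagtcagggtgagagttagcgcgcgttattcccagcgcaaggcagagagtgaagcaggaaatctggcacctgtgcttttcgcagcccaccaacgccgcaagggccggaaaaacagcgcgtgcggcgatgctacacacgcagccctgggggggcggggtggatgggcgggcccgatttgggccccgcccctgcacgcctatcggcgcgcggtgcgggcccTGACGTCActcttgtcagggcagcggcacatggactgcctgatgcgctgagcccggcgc
Nfil3, chr13:52980990-52981289, minus strand: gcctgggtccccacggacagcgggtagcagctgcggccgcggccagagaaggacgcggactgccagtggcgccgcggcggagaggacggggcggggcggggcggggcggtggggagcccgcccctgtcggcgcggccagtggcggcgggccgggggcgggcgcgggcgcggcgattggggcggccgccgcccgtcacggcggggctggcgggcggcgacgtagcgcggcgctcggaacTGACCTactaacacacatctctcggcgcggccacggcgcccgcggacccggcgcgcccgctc

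Both Tef promoters held an E-box, which began 127 bases before the first start site and 138 bases before the second. The Hlf promoter held a cAMP response element 9 bases before the start, and the Nfil3 promoter held the core of the ROR and REV-ERB element on the opposite strand, 12 bases before the start. The Dbp stretch held none of the 4 elements. The marked elements do not overlap one another. Among 32851 promoter stretches of the same length, 7.15% held the E-box, 1.06% a D-box, 1.79% the cAMP response element and 16.3% the ROR and REV-ERB core, and these matches describe letters only. The sequence GGACT, a frequent context of m6A, occurred 0 times in the longest coding transcript of Dbp (1837 bases), 3 times in that of Tef (4403 bases), 7 times in that of Hlf (5642 bases) and 2 times in that of Nfil3 (2026 bases). Per kilobase this was 0.681 for Tef, 1.24 for Hlf and 0.987 for Nfil3, beside a median of 1.03 over 16146 such transcripts.

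Depth in M (mega) estimated reads was 11.1 to 30.9 in knockouts and 13.7 to 33.8 in controls. Mettl3 was at 76.9 to 122 in knockout livers and at 199 to 263 in control livers, in normalised estimated counts, called values from here on, and the limma fit described next gave a log2 change of -1.17 (SE 0.12, adjusted p = 1.32e-05). Sex-linked transcripts placed 8 libraries (replicates 1 to 4 of both groups) in a Y-positive class of 24.3 to 33.8 M reads and 6 (knockouts 5 to 8 and controls 5 and 6) in an Xist-high class of 11.1 to 19.3 M reads. Knockouts 3, 6 and 7 stood apart from the other knockouts on the first principal component, at 61.5 to 99.7 against -10.7 to 27.6, with controls at -70.3 to -25.8. Mitochondrial protein-coding genes made up 7.85% and 7.91% of the summed value in knockouts 6 and 7, against 2.77% to 5.47% in the other 12 libraries. Knockout 3 was at 3.53%. In the limma fit across all genes, which compares log2(value + 1), 22.4% of 23554 genes tested had an adjusted p of at most 0.05 and are called changed, 11.0% lower and 11.5% higher in knockouts. The 2 ranges did not overlap for 4.02% of genes, lower in knockouts, and for 4.14%, higher in knockouts. The labels did not say that the libraries came from separate mice, and the p-values measure the spread between these libraries.

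In the knockouts Dbp and Tef fell, Nfil3 rose, and Hlf did not pass the test. Dbp, named for binding to a D-site of the albumin promoter, had a lowest value of 855, a median of 1471 and a highest of 1949 in knockout livers, against 2611, 3154 and 3582 in control livers. Every knockout liver lay below every control liver. Dbp fell by 1.16 on the log2 scale, knockout minus control (SE 0.17, interval -1.53 to -0.80 at 95%), and limma gave an adjusted p of 0.000266.

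Tef, the thyrotroph embryonic factor, had a lowest value of 493, a median of 623 and a highest of 851 in knockout livers, against 1194, 1373 and 1447 in control livers. These groups did not overlap either, and knockouts 6, 7 and 8 lay close together at 496, 499 and 493. Tef fell by 1.09 on the log2 scale (SE 0.14, interval -1.38 to -0.80 at 95%), with an adjusted p of 7.37e-05 from limma. Of the 4 genes, 2 were thus called lower and 1 higher, beside the 11.0% and 11.5% of all genes given above.

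Hlf, the hepatic leukemia factor, had a lowest value of 373, a median of 507 and a highest of 623 in knockout livers, against 505, 635 and 703 in control livers. The groups overlapped: knockouts 1, 2, 4 and 8, at 563 to 623, lay within the control range, and knockouts 3, 5, 6 and 7, at 373 to 451, lay below it. The log2 change of -0.33 (SE 0.13) missed the threshold in the limma fit (adjusted p = 0.0754), with an interval of -0.61 to -0.06 at 95%. Hlf passed without knockout 1 (-0.38, adjusted p = 0.0471 from limma) or without control 6 (-0.40, 0.0468), and its change was 0.00446 when libraries were set to equal sums without ribosomal RNA. In the authors' deposited table Hlf likewise had a q of 0.0627, while Dbp (2.09e-08), Tef (1.38e-12) and Nfil3 (0.00153) were below 0.05, as were 8.26% of 27865 genes in the downward and 8.82% in the upward direction of that table.

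Nfil3, the repressor, had a lowest value of 407, a median of 713 and a highest of 1201 in knockout livers, against 171, 334 and 461 in control livers. All 8 knockouts lay above the control mean, but knockouts 3 and 6, at 407 and 412, lay below control 3, at 461. Nfil3 rose by 1.21 on the log2 scale (SE 0.28, interval 0.61 to 1.80 at 95%, adjusted p = 0.00616 from limma). Nfil3 had the widest spread of the 4 genes in both groups, with a coefficient of variation of 42.4% in knockouts and 31.1% in controls.

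**Figure D1:**
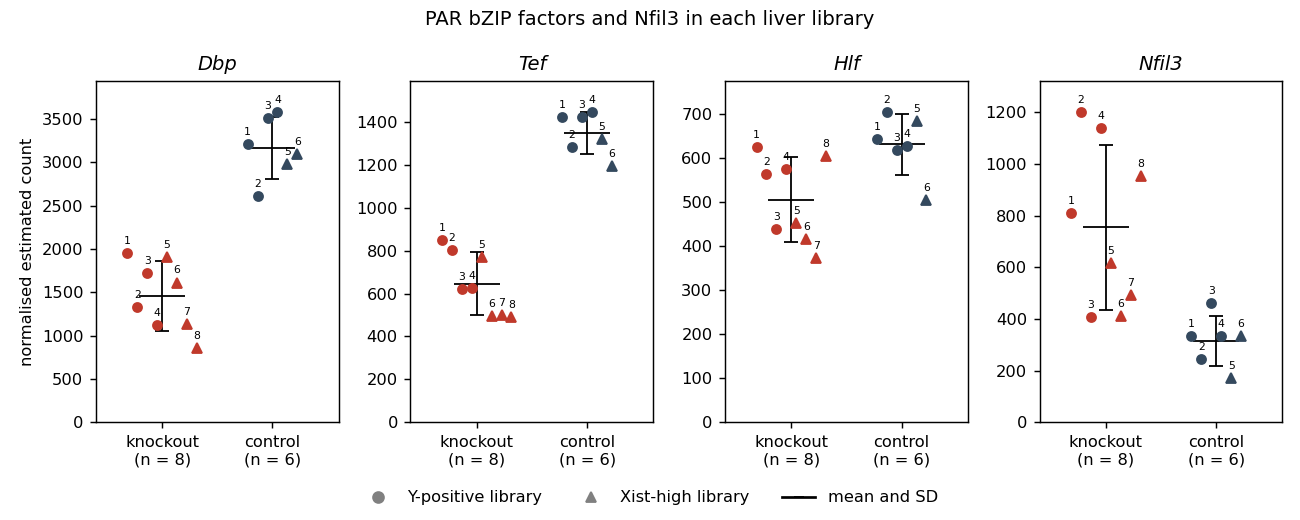
Normalised estimated count (vertical axis, from 0) of each gene in the 8 knockout and 6 control livers. Points are libraries numbered by replicate, circles Y-positive and triangles Xist-high, and bars give mean and SD: the groups are apart for Dbp (855 to 1949 in knockouts, 2611 to 3582 in controls) and Tef (493 to 851 in knockouts, 1194 to 1447 in controls) and overlap for Hlf and Nfil3.

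Among knockout livers Dbp was highest in knockouts 1 and 5 (1949 and 1910) and lowest in knockout 8 (855), whereas Hlf was at 604 in knockout 8. The 3 knockouts that stood apart had the lowest Hlf and Nfil3 values of the group. In knockouts 3, 6 and 7 Hlf was 373 to 437 and Nfil3 407 to 494, against 451 to 623 and 615 to 1201 in the other 5 knockouts. Their Dbp values, 1139 to 1719, lay inside the range of the other knockouts, 855 to 1949. Without these 3 libraries the log2 change of Nfil3 was 1.61, that of Dbp -1.20, that of Tef -0.95 and that of Hlf -0.16 (limma adjusted p = 0.344). In controls the coefficients of variation of the activators were 7.39% for Tef, 11.0% for Hlf and 11.3% for Dbp. Correlations between the 4 genes within a group were not computed, because both groups were split into clusters of fewer than 6 libraries.

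The changes had the same sign in both sex-linked classes. In Y-positive libraries the log2 changes were -1.10 for Dbp, -0.96 for Tef, -0.25 for Hlf and 1.29 for Nfil3, and in Xist-high libraries -1.20 for Dbp, -1.18 for Tef, -0.37 for Hlf and 1.29 for Nfil3. With 4 knockouts and 2 controls in the Xist-high class, none of the 4 passed there (limma adjusted p of 0.129 for Dbp, 0.0669 for Tef, 0.470 for Hlf and 0.162 for Nfil3). The differences between the classes, Xist-high minus Y-positive, were -0.11 for Dbp, -0.22 for Tef, -0.13 for Hlf and 0.01 for Nfil3, with limma adjusted p values of 0.875 to 0.998 for the interaction, in a fit where 0.0552% of genes were called. The interval for the Nfil3 difference was -1.19 to 1.20 at 95%, so a class difference nearly as large as the change itself was not detectable.

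The ratio of each activator to Nfil3 within a liver does not depend on how the libraries were scaled, and it fell in the knockouts for all 3 activators with no overlap between the groups. Dbp over Nfil3 had a lowest ratio of 0.894, a median of 2.35 and a highest of 4.23 in knockout livers, against 7.61, 10.1 and 17.4 in control livers. The ratio was 2.40, 1.11, 4.23, 0.987, 3.11, 3.91, 2.31 and 0.894 in knockouts 1 to 8, and 9.59, 10.6, 7.61, 10.8, 17.4 and 9.25 in controls 1 to 6. Knockouts 4 and 8 had fewer estimated reads of Dbp than of Nfil3, at 0.987 and 0.894, and the highest knockouts were 3 and 6, whose Nfil3 was lowest. The log2 change of this ratio was -2.37 (SE 0.37, limma adjusted p = 2.13e-05).

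Tef over Nfil3 had a lowest ratio of 0.516, a median of 1.03 and a highest of 1.52 in knockout livers, against 3.09, 4.30 and 7.72 in control livers. Its log2 change was -2.30 (SE 0.33, limma adjusted p = 8.58e-06). Hlf over Nfil3 had a lowest ratio of 0.469, a median of 0.744 and a highest of 1.08 in knockout livers, against 1.34, 1.90 and 3.98 in control livers. Its log2 change was -1.54 (SE 0.33, limma adjusted p = 0.000532).

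These ratios have to be read against Nfil3 itself, since its rise lowers the ratio of most genes. When every other gene was divided by Nfil3 in the same way, 70.6% of 23553 genes were called lower in knockouts, the median log2 change was -1.16, and the ranges did not overlap, lower in knockouts, for 18.1%. Of all these genes 2.70% had a more negative change than Dbp and 3.08% than Tef, but 19.7% than Hlf. Division by Nfil3 shifts every gene alike, so these shares rank each activator's own change and carry no information about Nfil3. For Dbp the share was likewise 2.70% with Hlf as denominator. All the ratios share the Nfil3 values, so that their tests are not independent. The fit also pools variance over genes that all carry the Nfil3 values, so the ratio p-values are approximate and may be too small. For the same contrast of Hlf and Nfil3, the SE was 0.33 with Nfil3 as denominator and 0.25 with Hlf as denominator.

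**Figure D2:**
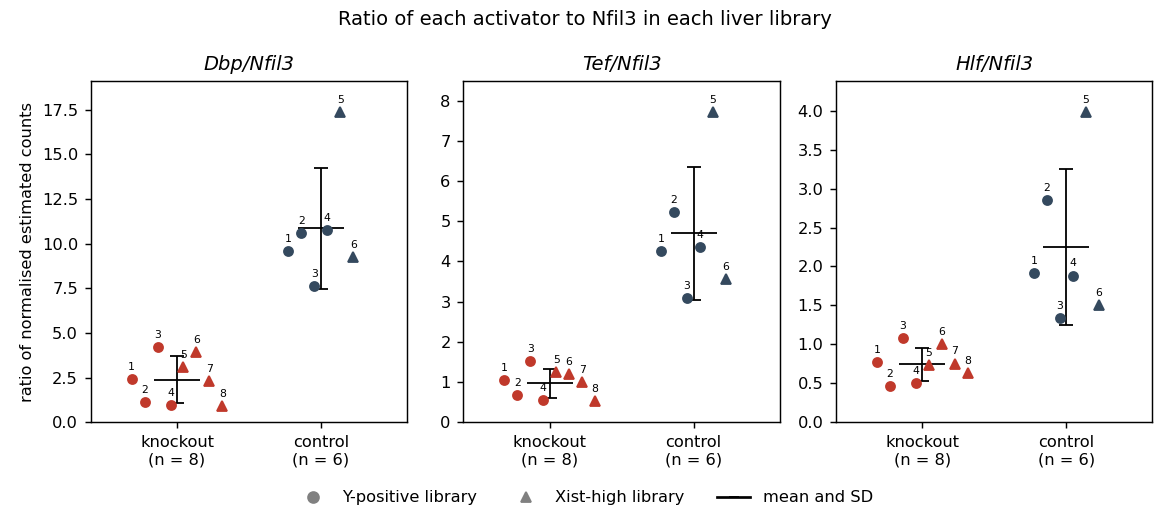
Ratio of the normalised estimated count of Dbp, Tef and Hlf to that of Nfil3 (vertical axis, from 0) in each of the 8 knockout and 6 control livers, with mean and SD. Every knockout lies below every control in each panel: up to 4.23 against at least 7.61 for Dbp, up to 1.52 against at least 3.09 for Tef and up to 1.08 against at least 1.34 for Hlf.

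The activators were also compared with each other. Dbp over Tef was 2.28 ± 0.554 (SD, n = 8) in knockouts and 2.34 ± 0.204 (SD, n = 6) in controls, a log2 change of -0.07 with an interval of -0.41 to 0.27 at 95% (limma adjusted p = 0.677). Relative to Tef, 0.522% of genes were called lower, and a difference within that interval between the changes of Dbp and Tef was not detectable. Tef over Hlf was 1.30 ± 0.265 (SD, n = 8) in knockouts and 2.16 ± 0.222 (SD, n = 6) in controls, with no overlap, and its log2 change was -0.76 (SE 0.16, limma adjusted p = 0.00279). Dbp over Hlf had a median of 3.09 in knockouts and 5.33 in controls, with overlap, and its log2 change was -0.83 (SE 0.23, limma adjusted p = 0.0156). Dbp and Tef both fell relative to Hlf, in a fit that called 2.73% of genes lower, while ranges of 0.548% lay apart in that direction. For Dbp this call was lost after quantile normalization (adjusted p = 0.0693).

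**Figure D3:**
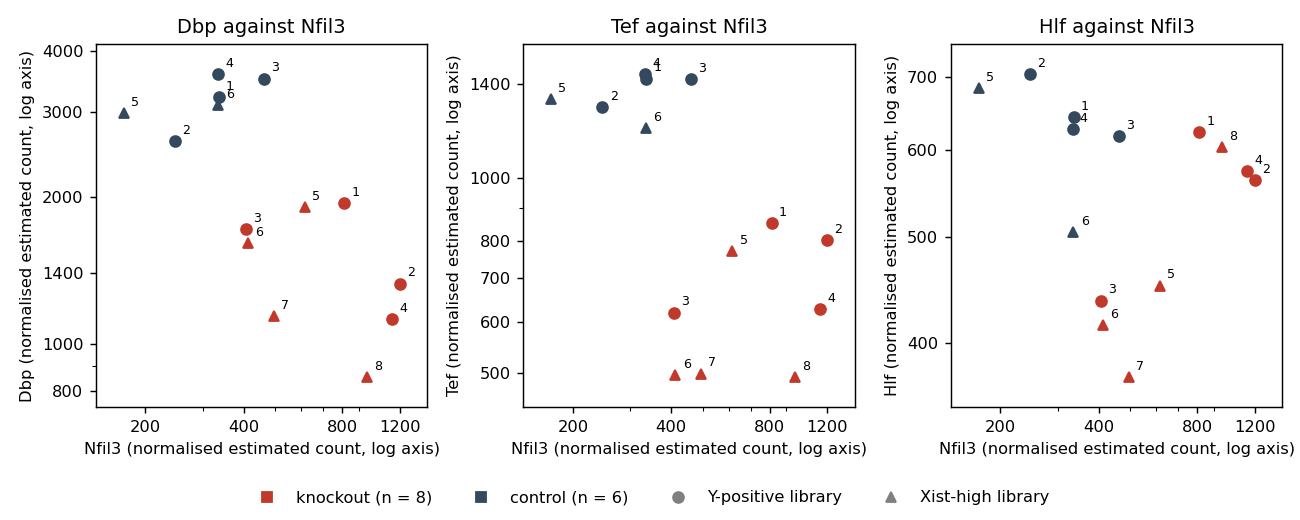
Dbp, Tef and Hlf (vertical log axes) against Nfil3 (horizontal log axis) as normalised estimated counts, 1 point per liver, numbered by replicate. Knockouts lie below all controls for Dbp and Tef at any level of Nfil3. This includes knockouts 3 and 6, whose Nfil3 (407 and 412) is within the control range. In the Hlf panel knockouts 3, 6 and 7 are the lowest of the knockouts in both genes, but Nfil3 in knockout 7 (494) is above every control.

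Levels of different genes were compared only per kilobase of merged annotated exons, which is 2.99 kb for Dbp, 7.87 kb for Tef, 6.68 kb for Hlf and 2.03 kb for Nfil3, and the isoforms in use were not known. On this scale Dbp was at 486 ± 134 (SD, n = 8) in knockouts and 1057 ± 120 (SD, n = 6) in controls, and Nfil3 at 372 ± 158 in knockouts and 155 ± 48.2 in controls. Dbp was highest of the 4 genes in 6 of 6 controls and in 5 of 8 knockouts, while Nfil3 was highest in knockouts 2, 4 and 8. Tef was at 82.0 ± 18.7 in knockouts and 172 ± 12.7 in controls, and Hlf at 75.6 ± 14.4 in knockouts and 94.3 ± 10.4 in controls. In knockouts the means of Tef and Hlf differed by less than the SD of either, and Hlf was above Tef in 2 of 8 libraries. In controls the means of Tef and Nfil3 differed by less than the SD of Nfil3 but by more than that of Tef. There Nfil3 ran from 84.6 to 227 and Tef from 152 to 184 per kilobase, and Nfil3 was above Tef in 2 of 6 libraries.

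Dbp shares 539 exonic bases with Sphk2, a sphingosine kinase gene on the opposite strand, and the strand setting of the quantification was not given. Sphk2 was at 666 to 1928 in knockouts and 919 to 1280 in controls, and its log2 change of 0.22 missed the threshold (adjusted p = 0.502 from limma). Without knockouts 3, 6 and 7 the Sphk2 change was 0.52 and passed (adjusted p = 0.0464 from limma). It also passed with equal sums outside ribosomal RNA (0.56, 0.0398), a scale on which 7833 of 23554 genes were called higher. Tef shares 193 exonic bases with the antisense gene Gm17597, which was at 11.5 to 29.3 in knockouts and 11.1 to 26.5 in controls.

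Of 14 genes for clock factors that act on the 4 genes or on their regulators, 6 fell, 1 rose and 7 did not pass, with a median log2 change of -0.49 beside 0.05 over all genes tested, of which 11.0% fell and 11.5% rose. Arntl, which encodes the activator BMAL1, rose to 222 ± 91.7 (SD, n = 8) in knockouts, against 68.9 ± 13.1 (SD, n = 6) in controls, a log2 change of 1.59 (limma adjusted p = 0.000409). Bhlhe41 and Ciart, both repressors of BMAL1 and CLOCK, fell by 1.57 and 1.42 on the log2 scale. Bhlhe41 was near the floor, at 7.25 ± 1.91 (SD, n = 8) in knockouts and 24.0 ± 7.39 (SD, n = 6) in controls. Its knockout mean was below the minimum of 10 for testing, so its entry into the test rested largely on the controls. The other genes that fell, named after their values were seen, were Per2 (-0.91), Per3 (-0.85), Cry1 (-0.59) and Cry2 (-0.47). The Per and Cry genes encode repressors of CLOCK and BMAL1. Among genes of REV-ERB and ROR receptors, Nr1d1 (-0.51, limma adjusted p = 0.0712), Nr1d2 (-0.30, 0.113) and Rora (0.09, 0.546) were not called. Unadjusted, Nr1d1 and Nr1d2 had p values of 0.0185 and 0.0358 in limma. Cry1 lost its call without control 1, 2, 3 or 6, with adjusted p values from limma of 0.0556 to 0.0581, and without knockouts 3, 6 and 7 (0.127). In Y-positive libraries alone Per2 (adjusted p = 0.0677 from limma), Cry1 (0.124) and Cry2 (0.114) were not called, and in Xist-high libraries alone none of the 14 was. Scaled to equal sums outside ribosomal RNA, 2 of the 14 were lower and 2 higher, and Per2 (-0.58, adjusted p = 0.0891), Per3 (-0.51, 0.0625), Cry1 (-0.27, 0.2502) and Cry2 (-0.14, 0.381) lost their calls.

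Genes listed as PAR bZIP or NFIL3 targets in liver moved in both directions. Of 16 such genes 7 fell, 3 rose and 6 did not pass, beside 11.0% lower and 11.5% higher over all genes tested. Their median log2 change was -0.11, beside 0.05 over all genes. Upp2, a uridine phosphorylase, was at 2258 ± 1735 (SD, n = 8) in knockouts and 9963 ± 1915 (SD, n = 6) in controls, a log2 change of -2.49 (limma adjusted p = 0.000604). The others that fell were Alas1, which starts heme synthesis (-1.89), Cyp2c50 (-1.74), Nr1i3, which encodes the nuclear receptor CAR (-1.42), Cyp7a1, the rate-limiting enzyme of bile acid synthesis (-1.15), Ppara, a receptor for fatty acids (-0.91), and Por, the reductase that serves cytochromes P450 (-0.68). The call of Por was lost after quantile normalization (-0.40, adjusted p = 0.128 from limma) and with equal sums outside ribosomal RNA (-0.34, 0.172). Cyp2c50 lost its call when any 1 of 9 libraries was left out (knockouts 4, 6 and 7 and every control), without knockouts 3, 6 and 7 together (-1.03, adjusted p = 0.0899 from limma), with no filter, voom weights, equal sums or quantile normalization, and in either sex-linked class alone, and its reads may be shared with near copies of the Cyp2c family.

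Those that rose were Cyp2b10, a cytochrome P450 induced through CAR, Acot2, a mitochondrial acyl-CoA thioesterase, and Cyp2a5, the coumarin hydroxylase. Cyp2b10 was at 814 ± 401 (SD, n = 8) in knockouts and 108 ± 139 (SD, n = 6) in controls, a log2 change of 3.71 (limma adjusted p = 0.000644). Acot2 rose by 2.50 and Cyp2a5 by 1.01, both above the control mean in 8 of 8 knockouts. In Xist-high libraries alone Cyp2b10 (1.92, adjusted p = 0.0521 from limma) and Acot2 (1.96, 0.263) were not called. Cyp2a5 has a near copy in Cyp2a4, and its call was lost with depth as a covariate, without control 4, without knockouts 3, 6 and 7, and in Xist-high libraries alone. Upp2, Cyp2b10, Acot2, Arntl, Bhlhe41 and Ciart were picked by rule as the 3 called genes of each list with the largest change. Their large changes are thus selected by the values themselves. The other members of both lists were named after their values were seen.

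**Figure D4:**
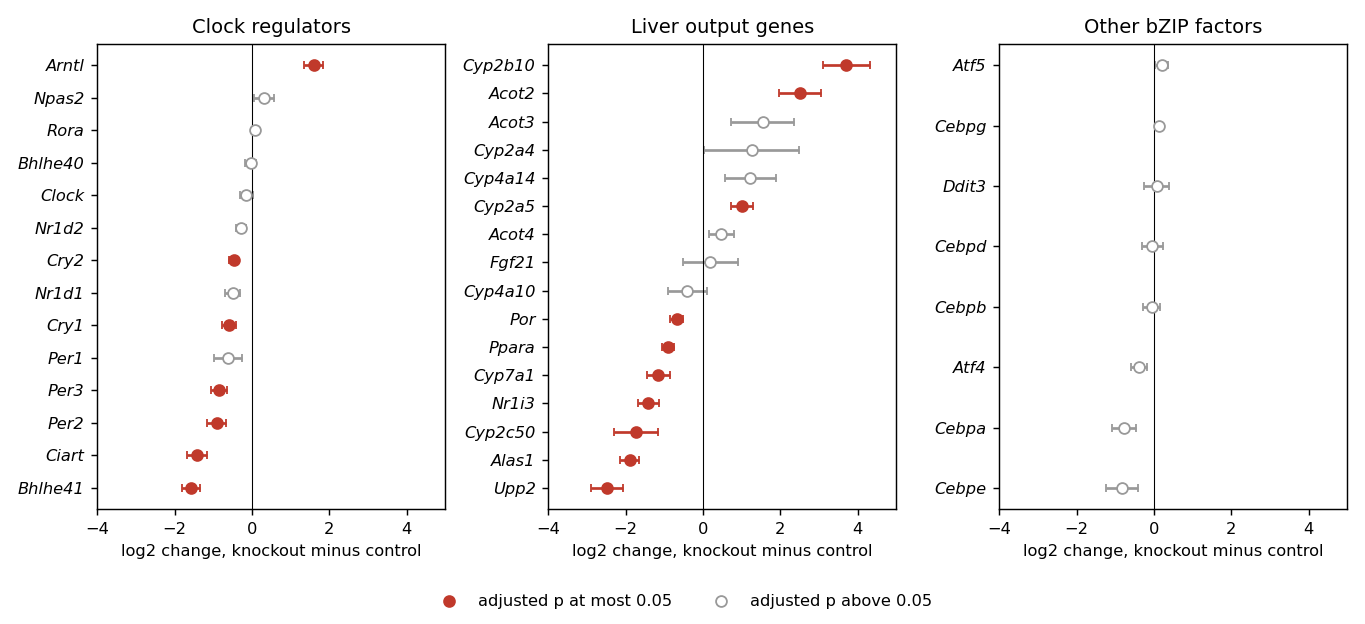
Log2 change, knockout minus control, with its standard error (bars) for each gene of the 3 lists, filled where the limma adjusted p was at most 0.05. Among clock regulators 6 filled points lie left of 0 and Arntl right of it, among liver output genes 7 filled points lie left and 3 right, and no other bZIP factor is filled.

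The other bZIP factors listed did not pass the test, but the list is short. Of 8 genes for C/EBP and ATF4-related factors, which bind elements close to the D-box, 0 were called, beside 22.4% of all genes tested. A list of 8 is too short to set 0 apart from that share, and with equal sums outside ribosomal RNA 2 were called higher. Cebpa had the smallest p (log2 change -0.78, SE 0.31, limma adjusted p = 0.0872). Its value was 8158 ± 3615 (SD, n = 8) in knockouts and 12447 ± 1229 (SD, n = 6) in controls. It was the 1 gene of the 8 with an unadjusted p under 0.05 in limma, and the authors' deposited table called 0 of the 8.

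The genes whose deviations from their group mean followed each member most closely over the 14 libraries, among 10552 coding genes of above-median value, were Atg2a, Dvl2 and Lrrc47 for Dbp (Pearson r of 0.866, 0.858 and 0.853), Hoga1, Fahd2a and Selenop for Tef (0.904, 0.901 and 0.895), Mia2, Olfr958 and Clock for Hlf (0.940, 0.924 and 0.917) and Lmf1, Mctp2 and Mcpt4 for Nfil3 (0.893, 0.885 and 0.873). These r values are the highest picked from so many genes, and they were not tested. The points share depth classes and the 3 knockouts that stood apart. None of the other members was among the 3 genes closest to any member. Of the genes closest to Nfil3, Lmf1, Mctp2 and Mcpt4 had log2 changes of -0.13, -0.08 and -1.43 between the groups, against 1.21 for Nfil3. None of the 3 was called (limma adjusted p of 0.502, 0.773 and 0.0804), but Mcpt4 was without knockout 4 (-1.66, 0.0417).

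Markers of the cell types in liver were read beside these changes. Over all genes tested 11.0% were called lower and 11.5% higher, with a median log2 change of 0.05. Of 7 hepatocyte markers 6 fell (median log2 change -0.77), and their summed value was 271787 to 511808 in knockouts and 499758 to 645022 in controls. In bulk RNA, fewer cells of a type and less RNA per cell cannot be told apart. Nfil3 is also expressed in lymphocytes and myeloid cells, whose markers were not called: 0 of 7 lymphocyte and NK cell genes tested (summed value 149 to 242 in knockouts, 204 to 241 in controls), 0 of 8 Kupffer cell and macrophage genes (6672 to 17433 in knockouts, 9787 to 13012 in controls) and 0 of 2 neutrophil genes tested (29.0 to 168 in knockouts, 30.3 to 74.7 in controls). No stellate cell marker of 4 was called (2928 to 4883 in knockouts, 4369.9 to 5202 in controls), 2 of 6 endothelial markers fell (2615 to 4527 in knockouts, 3921 to 4735 in controls) and 3 of 5 cholangiocyte markers rose (1046 to 3487 in knockouts, 648 to 1221 in controls). At an unadjusted p under 0.05 in limma the lymphocyte, Kupffer cell and neutrophil lists still had 0 genes and the stellate list 1 (Dcn), and the authors' deposited q called 0 in these 4 lists. Where 22.4% of all genes were called, lists this short with 0 calls do not show that these cell types were unchanged. No marker was at 0 in all libraries, and the part of cell composition in the changes of the 4 genes was not tested.

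**Figure D5:**
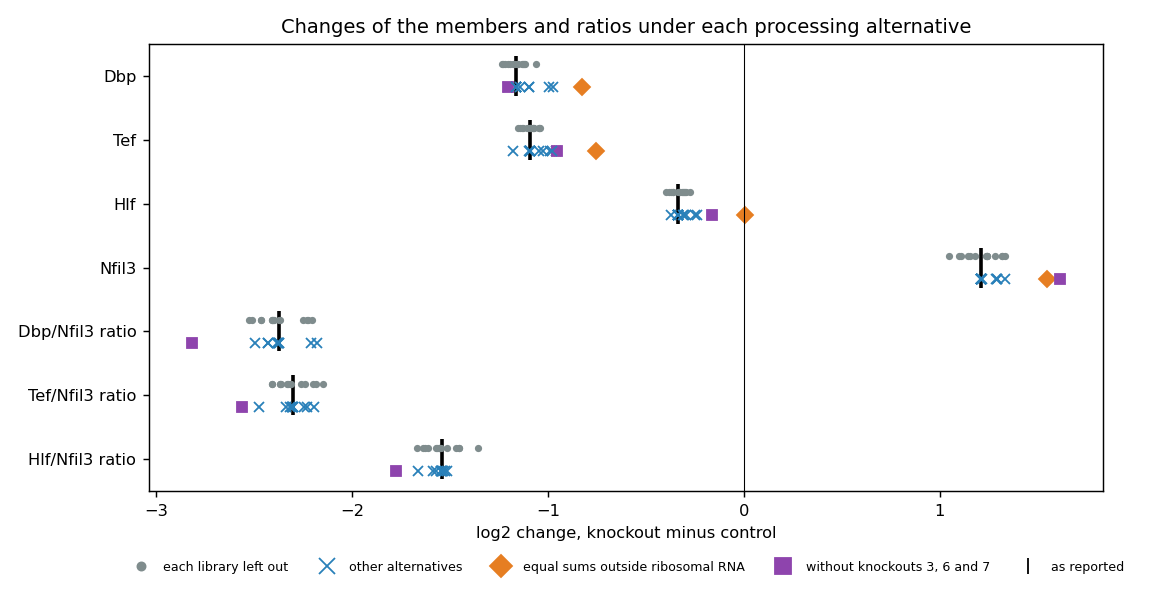
Log2 change, knockout minus control (horizontal axis), of the 4 genes and the 3 ratios as reported (bars) and under each processing alternative (points). Hlf reaches 0.00 when libraries are scaled to equal sums outside ribosomal RNA, Nfil3 reaches 1.61 without knockouts 3, 6 and 7, and the ratios lie between -2.81 and -1.36.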

How the data were processed

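RNA was extracted with Trizol and sequenced as stranded total RNA libraries of the Takara SMARTer Pico type, per the labels. The submitters' processing notes name kallisto, sleuth and the mm10 build. Versions were not given in the sources used here. For each library the authors deposited a signal, taken here from its values as estimated counts per gene divided by 1 size factor per library, of which 27.9% to 29.8% of the low ones were whole reads (within 0.02, under 200 reads). Since these are not raw counts, the planned limma fit on a log scale applied. The strand setting was not given in the sources used here. The authors deposited p-values and q-values from sleuth for 27865 genes, with a natural log change that equals, control minus knockout, the difference of mean ln(value + 0.5), and its sign was turned here.

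The 75859 lines were reduced to 54446 genes. Genes that reached 10 in 6 or more libraries (23554) were fitted with limma 3.58.1 in R 4.3.3 on log2(value + 1), knockout minus control, with a trended prior variance, and p was adjusted by Benjamini-Hochberg over all genes. For ratios, log2 of the denominator gene was subtracted within each library for every gene before the same fit. The pooled variance then carries the denominator gene in every row, so p-values of all the ratios are approximate. The ratios to Hlf and Tef were added after the data had been seen. Depth was the summed value divided by the worth of 1 read. The Xist-high class had an Xist value above 1000. The pipeline was tested on simulated data. Alternatives were other pseudocounts, filters, scalings, covariates, variance weights and subsets of libraries. Members, gene lists and tests were chosen with earlier results of these data known, and 1 gene of the clock list is not reported here. Named genes were the members, Mettl3, the 3 called genes of each list with the largest change (or the smallest p) and the 3 genes most like each member. Sequences came from RefSeq (GRCm38.p6), and all 4 genes matched by symbol.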

Additional observations from a re-analysis of the deposited data

Results flagged for a closer look

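Over the 4 genes, Mettl3 and 6 ratios in both groups, 22 sets of values were searched for a library far from the others, and chance flags about 1 in 20. The ratio of Dbp to Nfil3 in control replicate 5, at 17.4, was set apart from the other 5 controls, at 7.61 to 10.8. Nfil3 had its lowest value there, 171, while Dbp was at 2977, inside the control range.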

How the results depend on the processing

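Dbp, Tef and Nfil3 kept their direction in all alternatives, and lost their call only in the 6 Xist-high libraries, at -1.20, -1.18 and 1.29 (adjusted p = 0.129, 0.0669 and 0.162). There the Hlf/Nfil3 ratio (-1.67, adjusted p = 0.0595), Dbp/Hlf (-0.83, 0.338) and Tef/Hlf (-0.81, 0.280) also missed the threshold, and the genes called fell to 172 higher and 47 lower, with 0 of both the clock and the liver output list in either direction and a liver output median of -1.08. Dbp/Hlf was -0.67 (adjusted p = 0.0693) after quantile normalization and missed a threshold of 0.01 (-0.83, 0.0156), at which 1311 genes were higher and 1358 lower.

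With libraries set to equal sums without ribosomal RNA, the median of all genes moved by 0.329, with 7833 genes higher and 866 lower. On that scale 90.0% of calls were higher, against 51.1% as reported. Hlf was at 0.00446 (adjusted p = 0.979), Dbp at -0.83, Tef at -0.75 and Nfil3 at 1.55, the last 3 still called. List medians were 0.22 for liver output, -0.15 for clock and 0.29 for other bZIP genes, with 2 clock genes and 2 other bZIP genes higher and 2 clock genes lower. Clock (0.19), Lmf1 (0.21) and Mctp2 (0.26) changed sign there. They did so also without knockouts 3, 6 and 7 (0.072, 0.0528 and 0.0777), Mctp2 with depth as covariate (0.0064) and in Y-positive libraries (0.0389), and Sphk2 in Xist-high libraries (-0.0296).

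In Y-positive libraries 1740 genes were higher, 5 liver output genes were higher and 3 clock genes lower, and medians were 0.42 for liver output and -0.31 for other bZIP genes. The liver output median was -0.40 among genes above the median value and -0.42 with depth as covariate, where the other bZIP median was -0.17.

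With each library left out in turn, Dbp ran from -1.23 to -1.06, Tef from -1.16 to -1.04, Nfil3 from 1.05 to 1.33 and Hlf from -0.40 to -0.27, and Hlf was called without knockout 1 (adjusted p = 0.0471) or control 6 (0.0468). The liver output median ran from -0.40 (without control 3) to 0.15 and was positive without knockout 1 or 5 or control 4 or 5, and the other bZIP median from -0.18 (without control 3) to 0.0492. The ratios to Nfil3 ran from -2.53 to -1.36, all called.

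The labels give no meaning to shared replicate numbers, and the libraries were not treated as paired, because deviations of same-numbered libraries correlated at 0.142 to 0.228 in 5 of 6 pairs but at 0.0707 in the pair numbered 3. As a hint from the data, not the design, 3 of 6 knockouts, knockout 3 among them, correlated best with the control of their own number. The other 3 correlated second best with it. Same-numbered libraries also belong to the same sex-linked class, and these correlations cannot tell pairing and class apart. With the replicate block on replicates 1 to 6, 2031 genes were higher and 1928 lower, and Dbp was -0.995, Tef -0.98, Hlf -0.31 (adjusted p = 0.0815) and Nfil3 1.21. Under the block Cry1 (adjusted p = 0.131), Cry2 (0.0525), Atg2a (0.0612) and Dvl2 (0.0742) were not called. Voom weights and equal sums were not run for ratios, and correlations within a group were not run. Shallow Xist-high libraries limit the precision of low values.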
